A study of Homo sapiens with 6 samples.

Results

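The 10 genes described here encode the proteins that mark replication origins and license them: the 6 subunits of the origin recognition complex (ORC1 to ORC6), the loading factors CDC6 and CDT1, the CDT1 inhibitor geminin (GMNN) and DTL, the substrate receptor of a ubiquitin ligase that removes CDT1. They were chosen by gene name, with earlier results of these data known, and all 10 were found among the 33542 genes of the deposited count table. All 10 passed the expression filter, which left 18685 genes, and their counts ran from 484 to 9442 per library. The cells were T24, a line from a human urinary bladder carcinoma. They were transfected with small interfering RNA, either directed at TRAIP (siTRAIP, 3 libraries) or a control (siNC, 3 libraries). Both groups received the same transfection reagent, and RNA was sequenced from stranded mRNA libraries. The labels name 1 cell line and 1 siTRAIP group, so the values rest on 1 line and, as far as the labels say, 1 knockdown reagent. The comparison asks which transcripts change when the ubiquitin ligase TRAIP, which acts on replication machinery, is depleted.

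In human cells the origin recognition complex binds DNA and, with CDC6 and CDT1, loads the MCM helicase as a double ring in G1 phase. Licensing is then shut off until the next cycle: CDT1 is bound by geminin and destroyed in S phase through the CRL4 ligase, whose receptor DTL recognises CDT1 on chromatin-bound PCNA. Several of these genes are textbook targets of E2F transcription factors, and ORC1 and CDC6 are also controlled by protein degradation, which transcript counts do not measure.

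Because several licensing genes are known E2F targets, their promoters were searched for the E2F-type words TTGGCGC and TTCCCGC on both strands, from 250 bases before to 50 bases after each RefSeq start (GRCh38.p14). Of the 10 genes, 6 held either word: TTGGCGC occurred at ORC1, CDC6, GMNN (in 1 of its 2 listed promoters) and DTL, and TTCCCGC at ORC3, CDT1 and DTL. Counted by promoter, 6 of the 12 listed for these genes held either word, against 9.23% of all 35116 promoters of the same length. The set of all promoters was not matched to these genes for base composition or expression, here or for the words below. ORC2, ORC4, ORC5 and ORC6 held neither in these windows. Member promoters were also richer in CpG, with a median of 25 CpG dinucleotides against 14 in all promoters, and a median GC content of 62.8% against 58.7%. A CCAAT box word was present at 7 of the 10 genes, in 7 of the 12 promoters, against 34.6% of all promoters. At ORC1 its reverse form ATTGG overlaps the E2F word. The CHR word TTTGAA, known from late cell cycle genes, was found at none of the 10, against 15.2% of all promoters.
The promoters of 4 genes are printed because ORC1 and CDC6 are the genes whose transcripts rose, DTL holds both words and did not pass the test, and ORC6 holds neither word; capitals mark the E2F words.
ORC1: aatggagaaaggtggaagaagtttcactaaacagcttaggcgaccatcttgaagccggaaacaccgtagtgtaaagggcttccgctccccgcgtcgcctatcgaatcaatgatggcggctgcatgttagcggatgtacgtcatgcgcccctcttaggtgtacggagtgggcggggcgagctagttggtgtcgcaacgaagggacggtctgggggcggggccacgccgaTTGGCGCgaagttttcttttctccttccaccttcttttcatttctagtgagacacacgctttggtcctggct
CDC6: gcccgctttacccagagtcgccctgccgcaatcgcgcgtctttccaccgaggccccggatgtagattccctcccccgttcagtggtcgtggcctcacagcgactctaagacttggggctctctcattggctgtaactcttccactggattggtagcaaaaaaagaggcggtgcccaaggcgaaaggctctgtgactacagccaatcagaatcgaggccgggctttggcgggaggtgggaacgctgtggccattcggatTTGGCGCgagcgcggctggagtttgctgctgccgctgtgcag
DTL: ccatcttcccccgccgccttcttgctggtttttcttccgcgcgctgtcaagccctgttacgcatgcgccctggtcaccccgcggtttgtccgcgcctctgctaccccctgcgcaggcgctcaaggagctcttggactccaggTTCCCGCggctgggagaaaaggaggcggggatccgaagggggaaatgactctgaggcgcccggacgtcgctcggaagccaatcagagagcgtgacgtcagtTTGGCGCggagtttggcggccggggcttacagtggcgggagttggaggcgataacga
ORC6: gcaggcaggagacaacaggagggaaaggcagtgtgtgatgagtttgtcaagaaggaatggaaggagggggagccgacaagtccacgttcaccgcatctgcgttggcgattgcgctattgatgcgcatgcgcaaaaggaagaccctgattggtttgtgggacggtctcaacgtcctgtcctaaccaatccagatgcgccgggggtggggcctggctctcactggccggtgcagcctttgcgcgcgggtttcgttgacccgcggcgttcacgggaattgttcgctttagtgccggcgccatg
These windows lie at chr1:52404374-52404673, minus strand (ORC1), chr17:40287629-40287928, plus strand (CDC6), chr1:212035498-212035797, plus strand (DTL) and chr16:46689409-46689708, plus strand (ORC6). A word match describes the sequence and is not evidence of binding.

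The libraries held between 39111793 and 70439496 counts in genes. TRAIP mRNA, the knockdown target, stood at 12.5, 14.7 and 11.6 CPM (counts scaled to library size with TMM factors) in siTRAIP replicates 1 to 3, against 26.6, 28.3 and 28.4 CPM in siNC replicates 1 to 3 (log2 fold change -1.11; adjusted p = 6.74e-10 by edgeR). Among libraries of a group, siTRAIP replicate 3, the deepest, stood farthest from the others, with a chi-square per degree of freedom of 15.8 and 16.4 against its fellow siTRAIP libraries and 3.2 between those. The epithelial keratin genes KRT7, KRT8 and KRT18 and the mesenchymal gene VIM were expressed, while the uroplakin gene UPK3A, GATA3, KRT5 and CDH1 were each under 1 CPM on average, as were 6 of the 11 urothelial and epithelial markers in the table. Endothelial markers summed to at most 0.211 CPM in any siTRAIP library and 0.067 CPM in any siNC library. Fibroblast markers summed to between 1.08 and 5.35 CPM in siTRAIP and between 1.3 and 1.43 CPM in siNC. The high siTRAIP value was that of replicate 3, where COL1A1 had 294 counts, against 39 and 42 in siTRAIP replicates 1 and 2, and the part of these transcripts in the results was not tested. The leukocyte markers PTPRC and CD14 averaged under 1 CPM, and CD68, also a lysosomal gene, had 46.09, 45.17 and 38.75 CPM in siTRAIP replicates 1 to 3, against 34.52, 34.13 and 35.98 CPM in siNC replicates 1 to 3. CD68, with 85.8% of its exonic bases shared with other genes, was called higher (log2 fold change 0.31) and KRT7 lower (-0.18), and their part in the results was not tested. Whether the 3 libraries per group stem from independent cultures is not stated, so every p-value here reflects the scatter among these 6 samples, part of which may be technical.

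Depletion of TRAIP was accompanied by higher ORC1 and CDC6 transcripts, while the other 8 licensing genes did not pass the test. ORC1 was 25.2% higher and CDC6 14.0% higher in siTRAIP. No licensing gene was called lower. With edgeR's quasi-likelihood test and Benjamini-Hochberg adjustment over all 18685 genes, 2 of the 10 genes were thus called higher, against 7.47% of all genes tested called higher and 5.34% called lower. The groups did not overlap for 3 of the 10 genes, with ORC1 and CDC6 higher and ORC4 lower, against 29.1% of all genes tested. The median log2 fold change of the 10 genes was 0.10, beside -0.002 for all genes tested. In bulk RNA, a different number of cells of a type or cycle phase and a different amount of RNA per cell cannot be told apart.

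**Figure D1:**
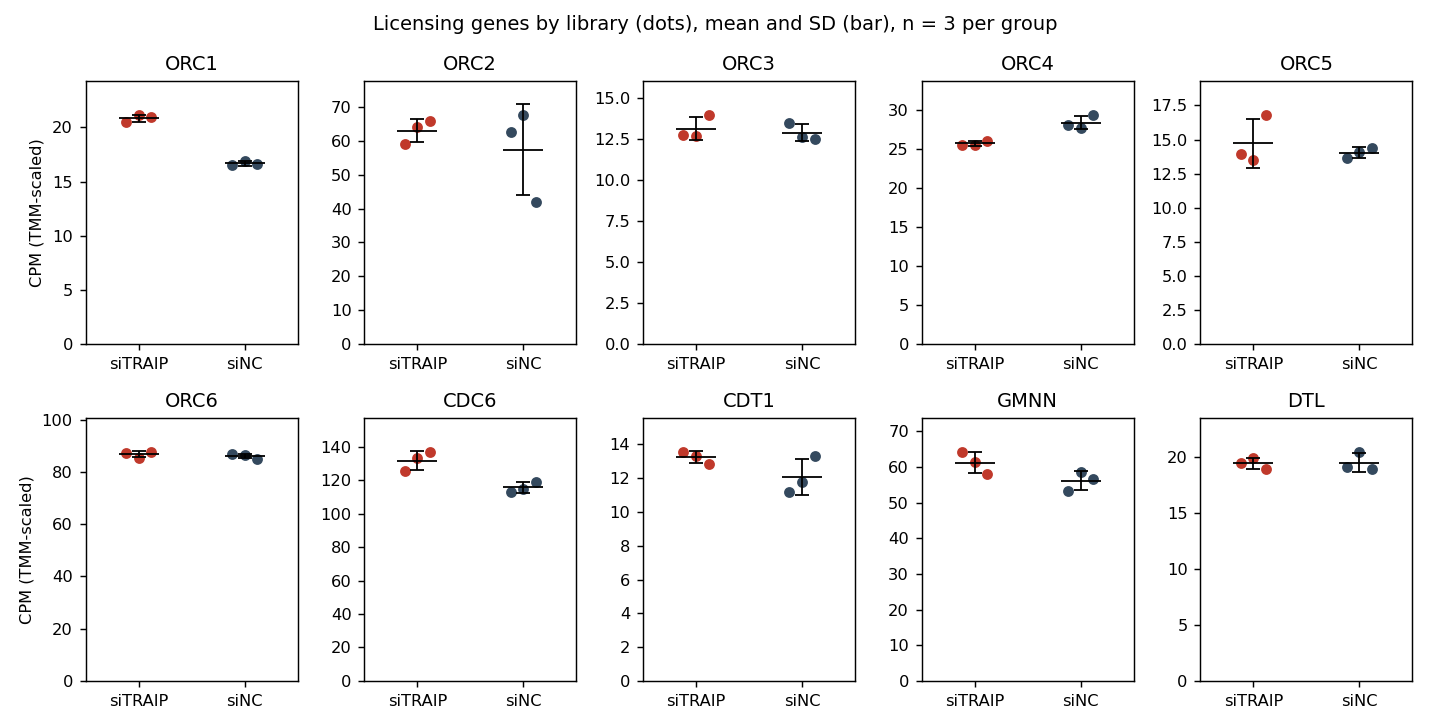
Expression of the 10 licensing genes in CPM (TMM-scaled, linear axes from 0) by library, siTRAIP in red and siNC in dark blue; dots are libraries, bars the mean and SD (n = 3 per group). The 3 siTRAIP dots lie above the 3 siNC dots for ORC1 (lowest 20.5 against highest 16.9 CPM) and CDC6, and below them for ORC4; 1 siNC library stands low for ORC2 (42.1 CPM).

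ORC1 encodes the largest subunit of the complex, an ATPase that rises and falls with the cell cycle in human cells. Its gene lies on chromosome 1, 52372829 to 52404459 (minus strand, GRCh38). It reached 20.5, 21.1 and 21.0 CPM in siTRAIP replicates 1 to 3, against 16.5, 16.9 and 16.6 CPM in siNC replicates 1 to 3. The libraries of each group lay within 1 CPM of each other and the groups were well apart. The means were 20.9 ± 0.322 CPM in siTRAIP and 16.7 ± 0.205 CPM in siNC (SD, n = 3 each), a log2 fold change of 0.32 (SE 0.06; adjusted p = 7.03e-04 by edgeR) with a 95% interval of 0.20 to 0.45. No other subunit gene of the complex was called. ORC1 kept its call in all 15 alternative settings, with log2 fold changes from 0.31 to 0.34 when 1 library was left out.

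The core subunits ORC2 to ORC5 stay bound to each other through most of the human cell cycle, and none of their genes passed the test. ORC2 (chromosome 2, 200908973 to 200963680) had 59.1, 64.2 and 65.8 CPM in siTRAIP and 62.6, 67.5 and 42.1 CPM in siNC. The siNC replicate 3 library stood apart, at 0.712 of the lowest other library. Of 6433 genes with a mean of at least 20 CPM, 16 (0.249%) were as low or lower in that library by this measure. Its log2 fold change of 0.14 (SE 0.21; adjusted p = 0.771 by edgeR) was carried by that library and was -0.05 without it, and 4.39% of its exonic bases are shared with AC005037.1 on the opposite strand.

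ORC4, which encodes an ATPase-fold subunit, was the 1 licensing gene with all siTRAIP libraries below all siNC libraries. It had 25.6, 25.5 and 26.1 CPM in siTRAIP, against 28.1, 27.7 and 29.3 CPM in siNC. Its log2 fold change of -0.14 (SE 0.05; adjusted p = 0.0982 by edgeR) missed the threshold, with a 95% interval of -0.25 to -0.03 before adjustment. Among all genes tested, 14.4% had every siTRAIP library below every siNC library. Genes on the opposite strand, ACVR2A and MBD5, share 6.58% of the exonic bases of ORC4 (chromosome 2, 147930397 to 148021604), so part of its count is uncertain.

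ORC3 and ORC5 encode further core subunits, and neither gene's groups separated. ORC3 (chromosome 6, 87590067 to 87667453) had 12.8, 12.7 and 14.0 CPM in siTRAIP and 13.5, 12.6 and 12.5 CPM in siNC, and changed by 0.03 on the log2 scale (SE 0.07; adjusted p = 0.848 by edgeR). ORC5 (chromosome 7, 104126341 to 104208047) had 13.9, 13.5 and 16.8 CPM in siTRAIP and 13.6, 14.1 and 14.4 CPM in siNC. The siTRAIP replicate 3 library was the highest of the 6 for both genes. The ORC5 log2 fold change was 0.08 (SE 0.08; adjusted p = 0.609 by edgeR), and -0.04 without that library.

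ORC6, the smallest subunit, joins the complex more loosely and helps bring in CDT1. Its gene had 87.3, 85.4 and 87.6 CPM in siTRAIP and 86.7, 86.6 and 85.1 CPM in siNC. All 6 libraries lay within 3 CPM of each other. Its log2 fold change of 0.01 (SE 0.04; adjusted p = 0.917 by edgeR) had a 95% interval of -0.08 to 0.10, or -5.13% to 7.02%. ORC6 (chromosome 16, 46689643 to 46698394) had the narrowest interval of the 10 genes.

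CDC6 encodes the ATPase that joins the complex in G1 and completes the ring onto which MCM is loaded. The gene lies on chromosome 17, 40287633 to 40304657. It had 125.4, 133.2 and 136.9 CPM in siTRAIP, against 113.0, 115.1 and 119.2 CPM in siNC, and the groups did not overlap. On the deposited RPKM scale they did, with 23.8 RPKM in siTRAIP replicate 1 and 23.9 RPKM in siNC replicate 3. The log2 fold change was 0.19 (SE 0.04; adjusted p = 0.00549 by edgeR), with a 95% interval of 0.10 to 0.28. The call was lost without siNC replicate 1 (log2 fold change 0.17, edgeR adjusted p = 0.0556), and on the deposited RPKM, which are not TMM-scaled, limma gave 0.13 with a pseudocount of 0.1 (adjusted p = 0.145) and 0.12 with a pseudocount of 1 (adjusted p = 0.144).

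CDT1, the other loading factor (chromosome 16, 88803213 to 88809258), brings the MCM ring to the origin. It had 13.5, 13.3 and 12.8 CPM in siTRAIP, against 11.2, 11.8 and 13.3 CPM in siNC. The siNC replicate 3 value fell within the siTRAIP range. The change of 0.13 on the log2 scale (SE 0.08; adjusted p = 0.324 by edgeR) missed the threshold, and its 95% interval of -0.03 to 0.29 includes the size of the CDC6 change. It was 0.074 without siNC replicate 1 and 0.20 without siNC replicate 3, and missed the threshold in both (edgeR adjusted p = 0.715 and 0.1498).

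GMNN encodes geminin, which holds CDT1 inactive from S phase to mitosis (chromosome 6, 24774931 to 24786099). It had 64.2, 61.4 and 58.1 CPM in siTRAIP, against 53.3, 58.5 and 56.5 CPM in siNC, and the groups overlapped at 1 library each. The log2 fold change of 0.12 (SE 0.05; adjusted p = 0.114 by edgeR) did not pass. Without siTRAIP replicate 3, the lowest siTRAIP library, it was 0.16 and passed (edgeR adjusted p = 0.0173).

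DTL, also known as CDT2, had 19.44, 19.89 and 18.85 CPM in siTRAIP and 19.06, 20.4 and 18.88 CPM in siNC, so the groups overlapped over nearly their whole ranges. Its gene lies on chromosome 1, 212035553 to 212107400. The log2 fold change was -0.01 (SE 0.06; adjusted p = 0.976 by edgeR), with a 95% interval from -8.9% to 9.002%. The promoter of DTL, printed before the values, is the 1 licensing gene promoter with both E2F words.

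**Figure D2:**
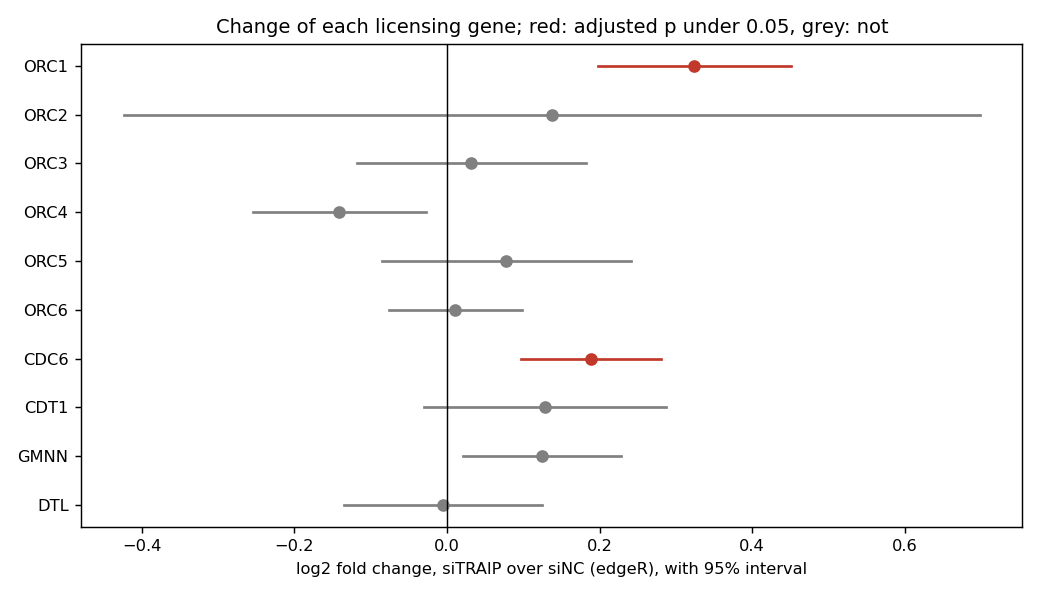
Log2 fold change of each licensing gene, siTRAIP over siNC (edgeR), with lines for the 95% interval before adjustment; red marks an adjusted p under 0.05. ORC1 (0.32) and CDC6 (0.19) are red, and the ORC2 line is the longest, from -0.42 to 0.70.

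Per gene length, the 10 transcripts differed more from each other than between the groups. On the deposited RPKM scale the highest level was 8.93 times the lowest in siTRAIP and 7.12 times in siNC. In siTRAIP the order of mean RPKM was CDC6 (25.2 ± 1.26), GMNN (24.2 ± 1.11), ORC6 (19.7 ± 0.171), ORC2 (10.6 ± 0.650), ORC1 (6.47 ± 0.151), CDT1 (3.88 ± 0.1002), ORC5 (3.87 ± 0.466), DTL (3.86 ± 0.121), ORC3 (3.49 ± 0.189) and ORC4 (2.82 ± 0.0391) (SD, n = 3). In siNC it was GMNN (23.1 ± 0.980), CDC6 (23.1 ± 0.749), ORC6 (20.4 ± 0.172), ORC2 (10.0 ± 2.29), ORC1 (5.39 ± 0.0402), DTL (4.04 ± 0.136), ORC5 (3.85 ± 0.118), CDT1 (3.70 ± 0.350), ORC3 (3.57 ± 0.155) and ORC4 (3.25 ± 0.122) (SD, n = 3). Neighbours in the order had library ranges that did not overlap in 6 of 9 pairs in siTRAIP and 5 of 9 in siNC. GMNN and CDC6 overlapped in both groups, and so did CDT1, ORC5 and DTL at the low end. Among the subunit genes of the complex, RPKM was highest for ORC6 and lowest for ORC4 in both groups. RPKM divides by the merged exon length of every annotated transcript, and ORC4 had the longest of the 10, with 8915 bases.

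**Figure D3:**
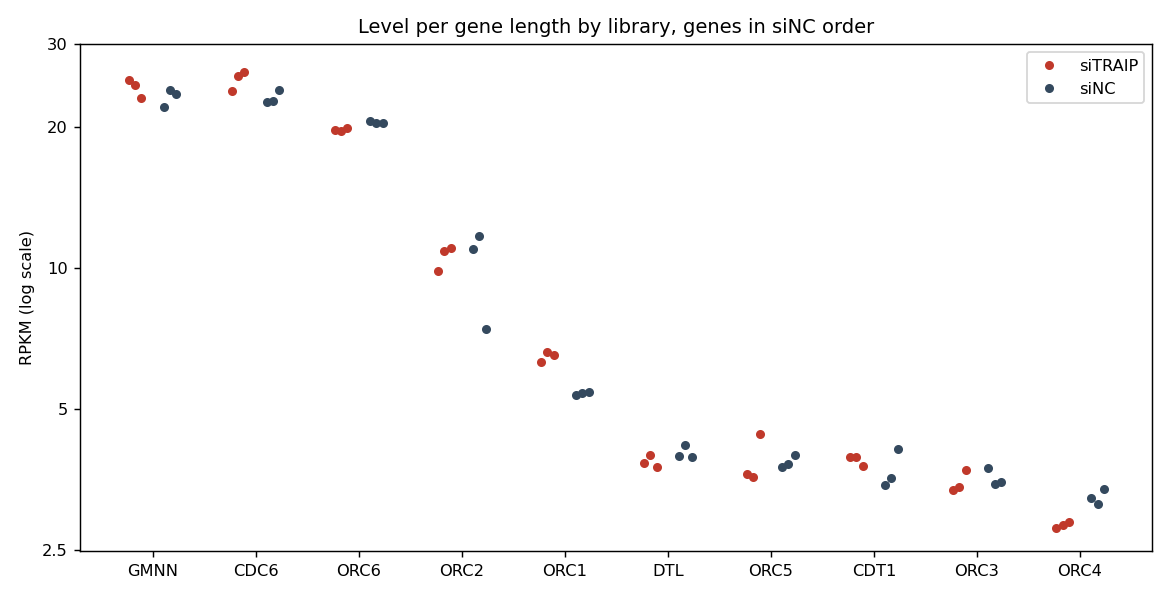
Deposited RPKM (log axis) of the 10 licensing genes by library, siTRAIP left in red and siNC right in dark blue, ordered by the siNC mean. GMNN, CDC6 and ORC6 lie near 20 to 26 RPKM in both groups and DTL, ORC5, CDT1, ORC3 and ORC4 between 2.78 and 4.41.

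Ratios between licensing genes within a library do not depend on library scaling, and 4 were compared with a 2-sided exact permutation test, for which 3 libraries against 3 allow no p below 0.1. The log2 ratio of ORC1 to the geometric mean of ORC2 to ORC5 was 0.56, 0.59 and 0.45 in siTRAIP replicates 1 to 3, against 0.18, 0.20 and 0.33 in siNC replicates 1 to 3. All siTRAIP libraries lay above all siNC libraries, a difference of 0.30 (exact p = 0.1, adjusted over the 4 ratios 0.4). With 1 library left out the difference was 0.27 to 0.34. The divisor holds ORC2, which stood low in siNC replicate 3, and ORC1 is itself a called gene, so this ratio is not separate evidence. The ratio of CDT1 to its inhibitor GMNN differed by 0.01 between the group means, at -2.64 ± 0.0332 in siTRAIP and -2.65 ± 0.117 in siNC (SD, n = 3 each; exact p = 0.9). The ratio of CDT1 to DTL was 0.01 ± 0.0285 in siTRAIP and -0.13 ± 0.159 in siNC (exact permutation p = 0.4), with siNC replicate 3 above the other siNC libraries, and the difference of 0.14 was 0.23 without that library and 0.086 without siNC replicate 2. CDC6 to CDT1 stood at 2.70 ± 0.102 in siTRAIP and 2.65 ± 0.0879 in siNC (exact permutation p = 0.5), a difference of 0.05 that was 0.0031 without siTRAIP replicate 3, 0.0033 without siNC replicate 3, 0.088 without siNC replicate 1 and 0.105 without siTRAIP replicate 1.

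**Figure D4:**
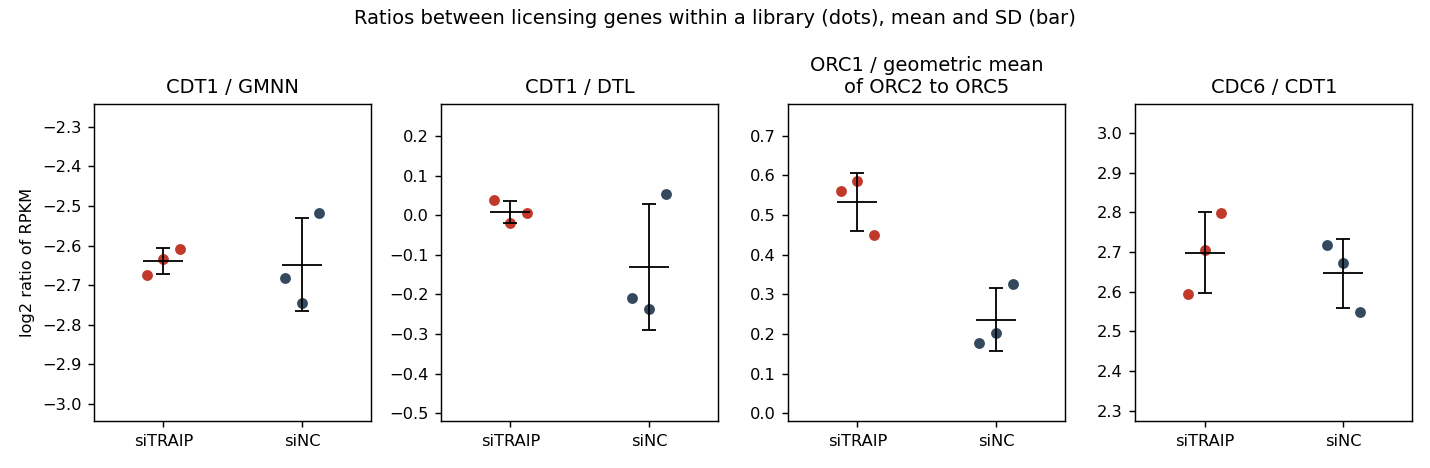
Log2 ratios of RPKM between licensing genes by library (dots), with mean and SD (bars, n = 3 per group); each panel spans the same height of 0.8. ORC1 relative to ORC2 to ORC5 is the panel in which the groups do not overlap (0.45 to 0.59 in siTRAIP, 0.18 to 0.33 in siNC).

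Several licensing genes start close to another gene. Of the 10 genes, 6 have a gene on the opposite strand whose annotated 5′ end lies within 1000 bases (GENCODE v29), and 5 of these partners are in the count table. PRPF38A, a splicing factor gene whose start lies 105 bases from that of ORC1, was called higher. It had 131.7, 122.2 and 136.7 CPM in siTRAIP, against 117.4, 117.7 and 117.4 CPM in siNC, a log2 fold change of 0.15 (SE 0.05; adjusted p = 0.0305 by edgeR). On the deposited RPKM scale its groups met, with 21.3 RPKM in both siTRAIP replicate 2 and siNC replicate 3. The PRPF38A call was not followed over the alternative settings, and a link to the ORC1 change was not tested. The partners of ORC3 (RARS2, 64 bases away, log2 fold change 0.01), ORC4 (MBD5, 593 bases, -0.04), ORC6 (VPS35, 125 bases, -0.08) and DTL (INTS7, 11 bases, 0.11) did not pass. INTS7 stood at 9.45, 9.74 and 9.82 CPM in siTRAIP, against 9.09, 9.08 and 8.71 CPM in siNC, without overlap (edgeR adjusted p = 0.421). The annotated exons of ORC1 and PRPF38A share no bases, but PRPF38A has 2 annotated pseudogenes that could share its reads.

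The 3 protein-coding genes whose profile over the 6 libraries was most like that of ORC1 were PPP1R18, PSMC3IP and RRM2, out of 9176 with a mean of at least 5 CPM. Likeness is the root mean square difference of log2 CPM after centring each gene, and was 0.0130, 0.0136 and 0.0182 for the 3 genes. PPP1R18, which encodes an actin-associated phosphatase regulator, had 255.2, 256.2 and 254.9 CPM in siTRAIP, against 203.0, 206.2 and 202.8 CPM in siNC. PSMC3IP, a homologous recombination cofactor gene, shares 29.9% of its exonic bases with MLX on the opposite strand, and RRM2, the ribonucleotide reductase subunit gene, shares 20.2% with AC007240.1 and has 3 annotated pseudogenes, so both are uncertain. Among the licensing genes themselves CDC6 was the closest to ORC1, with a difference of 0.0763, and ORC4 the farthest, with 0.234. Among the 9176 genes compared, CDC6 ranked only 445 and ORC4 7440. The measure runs over both groups, so it includes the siTRAIP to siNC difference and is not separate evidence of likeness.

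The wider pathway was read from 7 lists, chosen with earlier results of these data known. Of their 78 tested genes 16 (20.5%) rose and 4 fell, beside 7.47% and 5.34% of all genes tested. These shares were not matched for expression level, so no excess is read from them, here or for single lists. The MCM helicase, the load that the licensing proteins place on DNA, had the most calls for its size. Of 7 tested genes 5 rose and none fell, with a median log2 fold change of 0.14. MCM6 had 87.0, 86.8 and 92.3 CPM in siTRAIP, against 71.5, 70.7 and 70.8 CPM in siNC (log2 fold change 0.32, SE 0.04; adjusted p = 1.57e-05 by edgeR). MCM3 had 269.9, 255.7 and 241.0 CPM in siTRAIP, against 196.1, 208.3 and 210.0 CPM in siNC (log2 fold change 0.32, SE 0.05; adjusted p = 3.49e-05 by edgeR). MCM5 rose by 0.15 (edgeR adjusted p = 0.0231), MCM7 by 0.14 (adjusted p = 0.0314) and MCM2 by 0.14 (adjusted p = 0.0425), with 8.94% of the exonic bases of MCM7 and 23.6% of those of MCM2 shared with genes on the opposite strand. MCM4 had a log2 fold change of 0.04, and the helicase-binding gene MCMBP had a log2 fold change of -0.09 (adjusted p = 0.347). The count of 5 MCM rises fell to 2 without siNC replicate 2 or 3 or siTRAIP replicate 1 or 2, and on either RPKM scale, and to 3 with the replicate number as a block.

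In the CRL4 ligase and its substrates, where DTL acts, 2 of 8 genes rose and none fell. Of all genes tested, 7.47% were called higher and 5.34% lower. PCNA, the sliding clamp on which CDT1 is recognised, had 51.2, 51.5 and 54.3 CPM in siTRAIP, against 43.6, 44.5 and 42.6 CPM in siNC (log2 fold change 0.27, edgeR adjusted p = 3.98e-04), with 3 annotated pseudogenes that could share its reads. The scaffold gene CUL4B rose by 0.32 (SE 0.05; adjusted p = 4.04e-04 by edgeR), and its paralog CUL4A had a log2 fold change of -0.08 (adjusted p = 0.238). On either RPKM scale the list had 1 rise and 2 falls, and the CUL4B call was lost (limma adjusted p = 0.0535 and 0.0565). Over all genes, 454 and 450 rose and 1067 fell on these scales, against 1396 and 997 by edgeR. Of 15 other genes of licensing factor turnover, USP37, a deubiquitinase gene, rose by 0.33 (edgeR adjusted p = 5.29e-04) and UBE2S, the chain-elongating enzyme gene of the anaphase-promoting complex, fell by 0.23 (adjusted p = 0.00609). USP37 shares 32.8% of its exonic bases with VIL1 on the opposite strand, the USP37 call was lost on both RPKM scales, and that of UBE2S, which has 2 annotated pseudogenes, without siNC replicate 3 (adjusted p = 0.0639). The turnover list had 2 rises with DESeq2, with the filter of at least 1 CPM and without siTRAIP replicate 2 or 3, and no fall without siNC replicate 3. None of 8 tested chromatin partners and geminin relatives was called by edgeR, and 2 were called without siTRAIP replicate 3. Over all genes tested, 1480 to 2622 were called with 1 library left out, against 2393 with all libraries. With all libraries, 2 of the 8 (BRPF3 and NPM1) had an unadjusted edgeR p under 0.05. That is near the share of all genes, with 4629 of 18685 tested genes under it.

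Of 19 origin firing genes 3 rose and 1 fell, beside 7.47% and 5.34% of all genes tested. WDHD1, a replisome adaptor gene, rose by 0.31 on the log2 scale (SE 0.05; adjusted p = 3.90e-05 by edgeR), and CDC45, a subunit gene of the active helicase, by 0.24 (SE 0.06, adjusted p = 0.00899). DONSON rose by 0.15 (adjusted p = 0.0409) and shares 16.9% of its exonic bases with other genes. The DONSON call was lost on leaving out any library but siTRAIP replicate 1 (adjusted p from 0.0672 to 0.1754), with a log2 fold change of 0.092 without siTRAIP replicate 3, and also with the replicate number as a block (adjusted p = 0.0569), without robust estimation (adjusted p = 0.0644) and on both RPKM scales. DBF4B, an activator gene of the firing kinase, fell by 0.20 (SE 0.05, adjusted p = 0.0106). Without siNC replicate 3 only 1 of the 3 rises was left, and on either RPKM scale also 1. Rises over all genes were fewer on the RPKM scales as well, at 454 and 450 against 1396, and were 878 to 1471 with 1 library left out. Without siTRAIP replicate 3 there were 2 falls in the list.

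Among 13 E2F and pocket protein genes, 3 rose and 1 fell, beside 7.47% and 5.34% of all genes tested. The fall was in E2F7, which encodes a repressor: it had 84.0, 83.2 and 89.2 CPM in siTRAIP, against 118.2, 113.9 and 122.6 CPM in siNC, a log2 fold change of -0.47 (SE 0.05; adjusted p = 1.13e-07 by edgeR). E2F8, the related repressor gene, went the other way, with 15.4, 13.7 and 13.8 CPM in siTRAIP, against 10.1, 10.6 and 11.2 CPM in siNC (log2 fold change 0.43, adjusted p = 3.86e-04). RBL1, a pocket protein gene, rose by 0.35 (edgeR adjusted p = 1.60e-05). The activator gene E2F1 rose by 0.22 (edgeR adjusted p = 0.0366), a call lost on leaving out any 1 of the 5 libraries besides siTRAIP replicate 3. The E2F1 call was also lost with the replicate number as a block (edgeR adjusted p = 0.0503) and on both RPKM scales (limma adjusted p = 0.133 and 0.137). A second fall was called without siTRAIP replicate 3, on either RPKM scale and with a filter of at least 1 CPM in 3 libraries. Of 8 mitotic phase genes 2 rose and 1 fell, beside 7.47% and 5.34% of all genes tested. CENPF rose by 0.26 (edgeR adjusted p = 2.97e-04) and MKI67 by 0.17 (adjusted p = 0.0423), and PLK1 fell by 0.23 (adjusted p = 5.41e-04). The rest of the list was not called. The groups overlapped for MKI67, with 2148 CPM in siTRAIP replicate 3 and 2162 CPM in siNC replicate 2. PLK1 shares 12.5% of its exonic bases with genes on the opposite strand. The MKI67 call, too, was lost on leaving out any library but siTRAIP replicate 3. It was also lost on both RPKM scales, where the list had 1 rise and 2 falls.

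**Figure D5:**
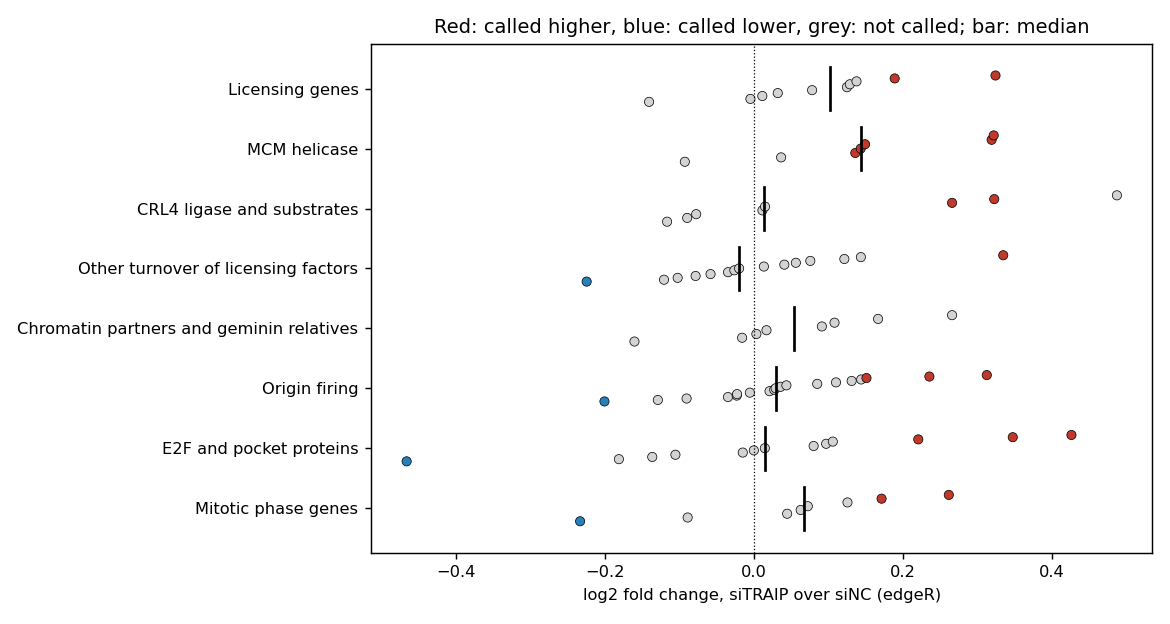
Log2 fold changes (siTRAIP over siNC, edgeR) of the licensing genes and the tested genes of 7 pathway lists, 1 dot a gene, black bars the medians; red was called higher, blue lower and grey not called. The MCM helicase has the most red dots for its size (5 of 7), and E2F7 is the farthest blue dot (-0.47).

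The coding sequences and 3' untranslated regions of the licensing genes were searched for 2 pairs of overlapping 7-base words that were chosen on these same fold changes. TCGGAGA or CGGAGAA was held by 32.9% of the genes called higher, against 18.8% of 9175 genes with a mean of at least 5 CPM, and ACAGTCT or CAGTCTA by 45.0% of the genes called lower, against 28.2%. ORC1, CDT1, GMNN and DTL held a word of the first pair, and ORC2, CDC6 and DTL held one of the second. Because the words were chosen on these fold changes, their excess among called genes is not separate evidence. The shares were not matched for the length of sequence searched. The part of these words in the changes was not tested.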

How the data were processed

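RNA of 6 T24 libraries (3 siTRAIP, 3 siNC, grouped by sample title) was analysed. The deposited table holds raw gene counts and, beside them, RPKM values made by the authors. Recomputing RPKM from the counts, the listed lengths and the column totals gave the deposited values to within 1.25e-06 (relative difference). Trimmomatic 0.36, Subread 1.5.1, featureCounts and the GRCh38 build are listed in the submitters' processing notes. The aligner, the annotation release and whether counting used strand were not given in the sources used here. Among counts of 1 to 10, 70.2% were even, against 50.8% of counts above 1000, so a count may hold both reads of a pair and totals may exceed the number of fragments.

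Counts were tested with edgeR 4.0.16 in R 4.3.3 (filterByExpr, TMM, robust quasi-likelihood F-test, 2-sided, Benjamini-Hochberg over 18685 genes, threshold 0.05). SE is the log2 fold change divided by the square root of F, and 95% intervals use the test's degrees of freedom. Alternatives used DESeq2 1.42.0 and limma 3.58.1 (trend) on log2(RPKM + 0.1) and log2(RPKM + 1), whose fold changes understate low genes. GENCODE v29 gave overlaps and RefSeq the promoters, which matched all 10 members.

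The members, lists and tests were chosen with earlier results of these data known; the search for opposite-strand partners and for words was added after the files were seen. Named genes are TRAIP, the 10 members, up to 4 called genes of each list with the smallest adjusted p plus called genes against the list's majority, and the 3 genes most like ORC1. CUL4A, MCM2, MCM4, MCMBP, the start partners, BRPF3 and NPM1 were named after their values were seen. Chi-square per degree of freedom within groups was 3.2 to 16.4, and each library was counted as 1 sample. Counts that hold both reads of a pair raise this value by themselves. It therefore cannot show that the libraries stem from independent cultures.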

Additional observations from a re-analysis of the deposited data

How the results depend on the processing

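Over 15 alternative settings, TRAIP kept its call with a log2 fold change from -1.21 to -0.99. Of 150 values of licensing genes, 136 kept their direction and side of the threshold, 3 lost the call (all CDC6), 1 gained it (GMNN) and 10 changed sign, none of them of a called gene. On the log2(RPKM + 0.1) and log2(RPKM + 1) scales, where the median of all genes was -0.06 and -0.03, ORC3 was -0.033 and -0.026 and ORC6 -0.049 and -0.047. With 1 library left out, ORC2 ranged from -0.047 (without siNC replicate 3) to 0.266, ORC3 from -0.019 (without siTRAIP replicate 3) to 0.063, ORC5 from -0.036 (without siTRAIP replicate 3) to 0.139, ORC6 from -0.0011 (without siNC replicate 3) to 0.0215 and DTL from -0.029 (without siNC replicate 3) to 0.027 (without siNC replicate 2). The cause was not tested. With limma on log2(RPKM + 0.1), 1521 genes were called, 454 of them higher, and 1 licensing gene, ORC1; with log2(RPKM + 1), the counts were 1517, 450 and 1. With 1 library left out, which leaves fewer samples, 1480 to 2622 genes were called, 878 to 1471 higher and 602 to 1151 lower; licensing genes called higher were 1 to 3 and called lower 0, and pathway list genes called were 12 to 26, against 20. The CDT1 to GMNN ratio then differed by -0.040 to 0.074, with 3 of the 6 values below 0. Of 285 values of the 19 named pathway genes, 239 kept their call, 46 lost it and none changed sign.

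The titles do not say that equal replicate numbers pair libraries. Deviations of same-numbered libraries from their group means correlated at -0.008, -0.02 and 0.001, and not every library correlated best with its own number. These values showed no pairing by number, but they cannot exclude that same-numbered libraries were prepared together. With the replicate number as a block, ORC1 (log2 fold change 0.32, adjusted p = 0.00193) and CDC6 (0.19, adjusted p = 0.0102) kept their calls, and 2145 genes were called. All errors cover the spread between these libraries and counting error only.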
